A study of Rattus norvegicus with 9 samples.

Results

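The synaptic vesicle and exocytosis machinery of the rat supraoptic nucleus was followed here over a course of water deprivation. The supraoptic nucleus is the hypothalamic cell group whose large (magnocellular) neurons make vasopressin and oxytocin. Members were taken by name: of 42 listed genes, 41 had at least 1 probe set annotated to that symbol alone, out of 4736 genes with such a probe set in the series, and Stx2 was not analysed here. Together they gave 60 probe sets. The arrays carried total RNA of the supraoptic nucleus of male Sprague Dawley rats aged 10 to 12 weeks, with 3 arrays each from control rats, from rats dehydrated for 1 day and from rats dehydrated for 3 days, 9 in all. Titles give each group the letters a, b and c. The labels do not say whether an array holds 1 animal or a pool, so each p-value covers the variation among these arrays alone, and that variation may be technical.

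Release from neurons runs through a cycle that these genes encode. Vesicles are held near the membrane by synapsins and Rab3, docked and primed by active zone proteins, and fused by a bundle of SNARE proteins when a synaptotagmin binds calcium. The ATPase NSF then takes the SNAREs apart, and clathrin, dynamin and synaptojanin recover the membrane. Magnocellular neurons use this machinery to release hormone from large dense-core granules at their endings in the posterior pituitary and from their dendrites, and they receive synapses from other neurons on their cell bodies. The mRNA measured in the nucleus is that of cell bodies lying there, so the mRNA of most neurons that send axons into it is outside the sample.

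In short, no member passed the test in any comparison, and neither did any other of the 5247 tested probe sets. After 3 days the members with the smallest unadjusted p were Snap25, which encodes a membrane SNARE, and Dnm1, the neuronal dynamin. Both were higher than in control, and neither was near the threshold after adjustment. The p of Snap25 was that of 1 of its 4 probe sets, and Dnm1 overlapped control. Vamp1, a vesicle SNARE, and Napa, which encodes the adaptor alpha-SNAP, were higher by smaller amounts, without overlap in 1 of 2 probe sets each. Such separation upward held at 3 days for 3 member probe sets (5.77 percent), against 4.73 percent of all. Sncb, which encodes beta-synuclein, had the largest negative difference of the members at 3 days and at 1 day, where this rested on array c: without it Sncb stood at -0.41 and Stx7, which encodes an endosomal SNARE, at -0.85. The 4 probe sets of Snap25 disagreed with each other.

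Signals are MAS5 intensities, in which 1 linear value summarises the probes of a probe set. Differences are given on the log2(signal + 4) scale, which understates the change of dim genes, as log2 difference ± standard error (SE) from a limma fit of all 9 arrays. A probe set was tested where its mean signal over the 9 arrays reached 23.1, the 40th percentile. This kept 5247 probe sets, among them 52 of the 60 member probe sets and 35 of the 41 member genes. The other 6 genes (Bsn, Doc2b, Rph3a, Stx3, Syt2 and Unc13b) and a second probe set each of Dnm2 and Stx5 had means between 7.26 and 15.3. Both dehydrated groups are set against the same 3 control arrays.

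The nucleus was recognisable by its defining genes. Of 11 listed magnocellular markers 10 had a probe set and all 10 passed the filter, with mean signals over the 9 arrays of 3209 for Avp and 2612 for Oxt. The arrays were unlike in these genes, with Oxt at 208.3 on control c and 272 on 1-day c, against 2331 to 4356 elsewhere. Avp was also lowest on these arrays, at 1765 and 1622, against 2487 to 5678 elsewhere. The summed signal of the magnocellular markers was 11827.5 to 14184.6 at 3 days, against 5124 to 9426 in control, without overlap, and 5686 to 10886 at 1 day. Avp and Oxt made up much of this sum, and of the 10 markers 8 were higher at 3 days and 2, Gal and Scg2, lower. The summed signal of 10 general neuron markers was 8169 to 8884 at 3 days, against 7409 to 8621 in control, and 7709 to 8829 at 1 day. Astrocyte markers (9 of 10 listed) summed to 7459 to 10553 at 3 days, against 5437 to 8483 in control, and oligodendrocyte markers (8 of 10) to 3900 to 8513, against 5288 to 8243. Microglial markers (8 of 9) summed to 1468 to 1499 at 3 days and 1339 to 1959 at 1 day, against 1229 to 1335 in control, without overlap at either time. Ctss made up most of that sum, and 4 of the 8 genes passed the filter. Ctss alone was at 1165.5 to 1211.4 at 3 days and 1022.5 to 1488.5 at 1 day. In control it was at 899.1 to 1104, with overlap at 1 day. Of the endothelial and blood markers (6 of 11), the haemoglobin gene Hbb was at 836.2 to 1136 at 3 days and 1698 to 2365 at 1 day, against 1564 to 1653 in control. The other 5 summed to 259.0 to 297.6 at 3 days and 278.2 to 321.7 at 1 day, against 280.3 to 297.9 in control, with overlap. The part of these shifts in the member results was not tested, and in tissue RNA fewer cells of a type and less RNA per cell cannot be told apart. Median signals of the arrays lay between 26.8 and 40.3, and the brightest signal was 2105 on control c and 2239 on 1-day c, against 3867 to 6295 on the other 7 arrays. The 3' to 5' ratio of beta-actin was 1.13 to 1.48 at 1 day and 0.991 to 1.43 at 3 days, against 0.743 to 1.07 in control. That of Gapdh was 0.85 to 1.05 at 1 day and 0.892 to 1.55 at 3 days, against 0.926 to 1.09 in control. Its highest value was that of 3-day c, which also held the highest signals of Snap25 AB003991_at, Napa X89968_g_at and Dnm1. The highest beta-actin ratio was that of 1-day c, which also held the lowest signals of Sncb, Synj1 AJ006855_s_at and Cplx2. That array was the lowest of the 9 for 11 of the 52 tested member probe sets and the highest for 9. The part of RNA quality in these was not tested.

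At 3 days 30 of the 52 tested probe sets were higher than in control and 22 lower, with a median of 0.04, while 51.7 percent of all tested probe sets were higher and 48.3 percent lower, and their median was 0.02. Without the filter on signal, all 60 member probe sets gave 36 higher and 24 lower, with a median of 0.065 against 0.046 over all 8740. At 1 day 19 were higher and 33 lower, with a median of -0.05, against 52.7 percent higher, 47.3 percent lower and a median of 0.02 over all probe sets. The 1-day split was 26 higher and 26 lower without 1-day b, where the median over all probe sets was 0.025. Between the times 29 were higher at 3 days than at 1 day and 23 lower, with a median of 0.04, against 50.1 percent higher, 49.9 percent lower and a median of 0.00. That split was 38 and 14 without 3-day c, and 26 and 26 without 3-day a. The median over all probe sets was then 0.025 and -0.00062.

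limma called 0 members and 0 of the 5247 probe sets at 3 days, at 1 day and between the times (0 percent in each comparison). At an unadjusted p under 0.05 there was 1 member higher and 0 lower at 3 days (1.07 and 0.648 percent of all probe sets), 0 in either direction at 1 day (0.572 and 0.438 percent), and 1 higher and 0 lower between the times (0.877 and 0.953 percent). The groups did not overlap for 3 members higher and 0 lower at 3 days, where 4.73 and 3.01 percent of all probe sets did so. At 1 day this held for 1 member in each direction, against 2.63 percent higher and 1.58 percent lower over all. Between the times 4 members were higher without overlap and 0 lower, or 7.69 percent of the members, against 3.05 and 2.67 percent. These shares differ by a few probe sets and are given as a description. The F test over the 3 groups called 0 members (0 percent of all probe sets), with 1 member at an unadjusted p under 0.05 (1.05 percent of all).

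The titles do not say what the letters mark, but arrays of the same letter deviated together. The direction was therefore also read within each letter. At 3 days 9 members were higher in all 3 letter pairs and 6 lower, where 16.9 and 13.3 percent of all probe sets were so. At 1 day there were 2 higher and 4 lower, against 16.8 and 9.41 percent of all. Between the times there were 10 higher and 1 lower, against 12.5 and 13 percent of all. With the letter as a block in the fit, Snap25 AB003991_at, Syt1 and Dnm1 had an unadjusted p under 0.05 at 3 days, all higher (3 members, against 2.76 percent of all probe sets higher and 2.38 percent lower). At 1 day this held for Sncb, lower (1 member, against 1.56 percent higher and 1.03 percent lower), and between the times for Snap25 AB003991_at, higher (1 member, against 2.34 and 2.9 percent). No call was made after adjustment (limma adjusted p = 0.873, 0.958 and 0.770 for these comparisons).

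**Figure D1:**
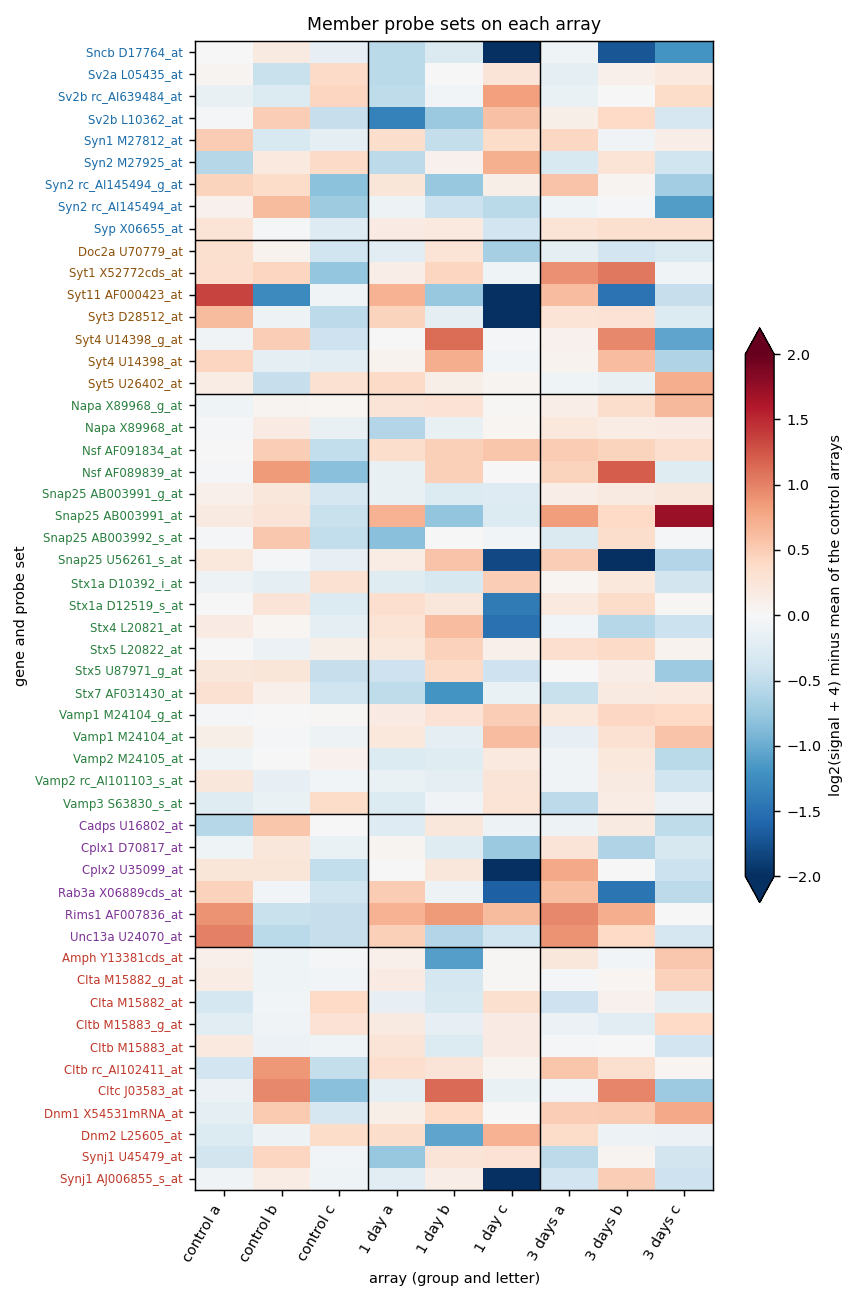
The 52 tested member probe sets (rows, coloured and ruled off by role) on the 9 arrays (columns), as log2(signal + 4) minus the mean of the 3 control arrays; red is higher and blue lower, and the scale stops at -2 and 2. Most cells are pale, a few probe sets such as Sncb and Synj1 AJ006855_s_at are dark blue on 1-day c, and rows such as Cltc repeat by letter and not by group.

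Summed over all 60 member probe sets, the signal was 16720, 17447 and 14512 on control arrays a, b and c, 16532, 16080 and 15112 at 1 day, and 17909, 17861 and 18350 at 3 days. All 3-day arrays thus lay above all others. The sum is carried by the brightest members, and as a share of the signal of all probe sets it was 1.47, 1.47 and 1.41 percent at 3 days, against 1.41, 1.48 and 1.33 percent in control. Bright probe sets had the same lean. In the top 10 percent by mean signal there were 9 member probe sets, 6 of them higher at 3 days with a median of 0.18, beside 516 that were no members, 60.3 percent of them higher with a median of 0.08. The typical member did not follow the sum. Its median deviation from the 9-array mean was 0.08, 0.18 and -0.17 on control arrays a, b and c, 0.06, 0.05 and -0.07 at 1 day, and 0.14, 0.18 and -0.13 at 3 days, so that the letter c array was lowest in every group.

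**Figure D2:**
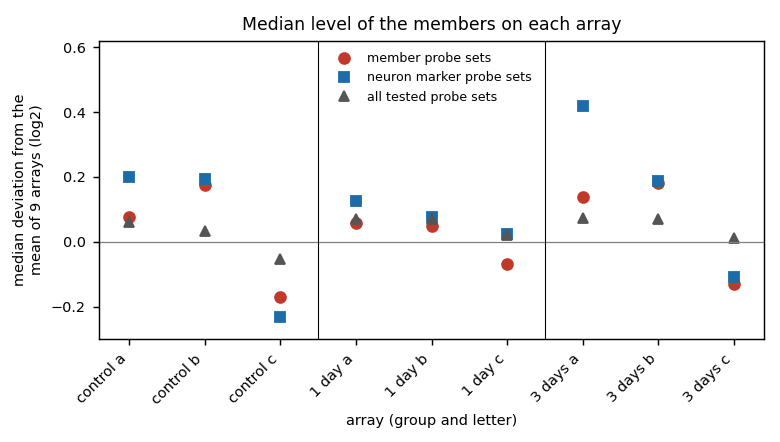
Median deviation from the mean of the 9 arrays (log2 scale) for the 52 member probe sets, for 21 probe sets of the neuron markers and for all 5247 tested probe sets, on each array. Members and neuron markers are low on letter c in control and at 3 days, and the groups overlap.

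Promoter windows were available from RefSeq (GRCr8) for 36 of the 41 member genes, in 37 windows that run from 250 bases before to 50 after the annotated start. Doc2a, Doc2b, Snap25, Syt5 and Vamp3 had none in the table. The windows had a median GC content of 64.3 percent, against 51.7 percent over all 33469 windows. The shares that follow were not matched for GC content, and its part in them was not tested. Searched on both strands, the GC box GGGCGG was in 27 windows (73.0 percent, against 33.1 percent of all), the EGR motif GCGGGGGCG in 7 (18.9 against 2.73 percent) and the TATA box TATAAA in 0 (0 against 14.2 percent). CCAAT was in 16 (43.2 against 37.5 percent), the AP-1 motif TGANTCA in 1 (2.70 against 7.33 percent), the E box CACGTG in 2 (5.41 against 6.42 percent), the ETS motif CCGGAAG in 3 (8.11 against 8.75 percent), the NRF1 motif in 4 (10.8 against 4.25 percent) and the RE1 core in 0 (0 against 0.036 percent). The cAMP response element TGACGTCA, a site for factors of the CREB family, was in 4 windows (10.8 against 1.83 percent), and its short form TGACG, which the full element contains, in 15 (40.5 against 21.2 percent). The 4 stretches with the full element, chosen after the matches were seen, show where it lies in these windows, with the element in capitals.
Napa, chr1:85915340-85915419, plus strand: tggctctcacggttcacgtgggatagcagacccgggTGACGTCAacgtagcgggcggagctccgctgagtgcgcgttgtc
Vamp1, chr4:159698787-159698866, plus strand: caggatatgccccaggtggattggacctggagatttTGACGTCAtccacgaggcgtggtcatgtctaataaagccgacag
Syn1, chrX:3725519-3725598, plus strand: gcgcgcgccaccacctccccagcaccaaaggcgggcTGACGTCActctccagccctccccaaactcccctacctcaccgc
Cltb, chr17:10006577-10006656, plus strand: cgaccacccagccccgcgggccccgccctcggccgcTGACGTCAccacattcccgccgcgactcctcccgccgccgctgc
The element began at base -59 from the start in Napa, -71 in Vamp1, -190 in Syn1 and -102 in Cltb. A match is a description of the letters and not evidence of binding.

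Among the SNAREs, Snap25 encodes the plasma membrane protein that gives the fusion complex a pair of its helices. Its brightest probe set, AB003991_g_at, had signals of 1124, 1233 and 828.8 on control arrays a, b and c, 948.0, 867.6 and 879.9 at 1 day, and 1154, 1187 and 1228 at 3 days. All 3-day arrays lay above all 1-day arrays, while control spanned both. AB003991_at, from the same accession, read 846.6, 895.0 and 547.2 in control, 1206, 429.4 and 613.0 at 1 day, and 1339, 984.2 and 2478 at 3 days. Here the lowest 3-day array was above the highest control array, and the 3-day array c stood far above the rest.

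The remaining probe sets of Snap25 went other ways. AB003992_s_at read 189.0, 284.0 and 137.7 in control, 107.4, 195.6 and 187.6 at 1 day, and 159.0, 249.3 and 191.3 at 3 days. U56261_s_at read 76.8, 64.4 and 58.2 in control, 73.4, 100.1 and 16.1 at 1 day, and 94.3, 8.0 and 42.8 at 3 days. In both the 3 groups overlapped, and U56261_s_at held isolated low values on 1-day c and 3-day b. The suffix s marks probe sets whose probes match several transcripts.

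Side by side, the 3-day differences from control of the 4 Snap25 probe sets were 0.18 ± 0.22, 0.99 ± 0.43, 0.01 ± 0.34 and -0.88 ± 0.76. AB003991_at had the smallest p of all members (limma unadjusted p = 0.042, adjusted p = 1.00). Without the 3-day array c its difference was 0.62, and without control c 0.77. Between the times it stood at 1.12 ± 0.43 (unadjusted p = 0.025, adjusted p = 0.998), or 0.75 without 3-day c, and AB003991_g_at at 0.40 ± 0.22. At 1 day all 4 were lower than in control, between -0.36 and -0.13, each within its SE.

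**Figure D3:**
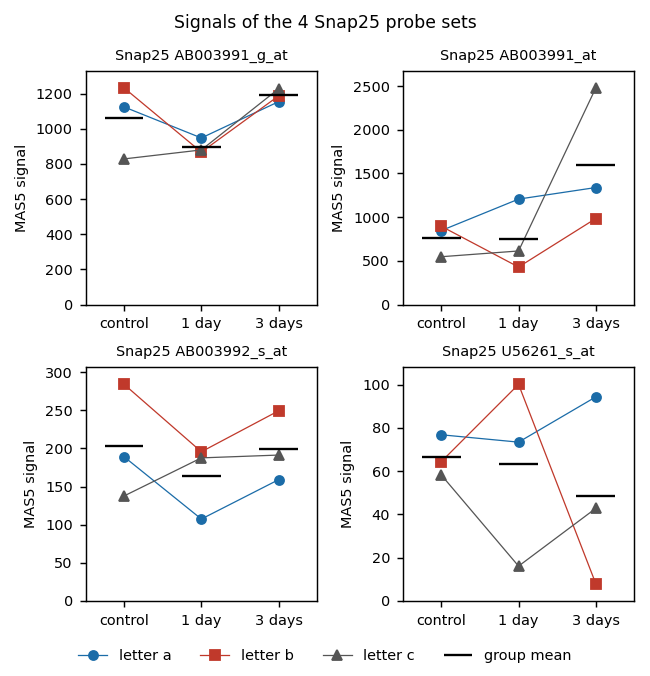
MAS5 signal (linear axis from 0, a scale for each panel) of the 4 Snap25 probe sets in control, at 1 day and at 3 days; points are arrays, lines join arrays of 1 letter, and black bars are group means. AB003991_at lies above control on all 3-day arrays, with 2478 on array c, while U56261_s_at is at 8.0 on 3-day b.

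The vesicle SNAREs, or synaptobrevins, pair with Snap25 and syntaxin. Vamp1 by its probe set M24104_g_at read 360.2, 368.6 and 374.9 in control, 410.9, 448.2 and 519.5 at 1 day, and 424.3, 492.9 and 483.6 at 3 days. It was the 1 member whose dehydrated arrays all lay above all control arrays at both times, and within every letter both dehydrated arrays exceeded control. Of all tested probe sets 31, or 0.591 percent, were above control without overlap at both times and 17, or 0.324 percent, below it. The means were 466.9 ± 37.2 at 3 days and 459.5 ± 55.2 at 1 day, against 367.9 ± 7.37 in control (SD, n = 3 arrays each), differences of 0.34 ± 0.21 and 0.31 ± 0.21 that did not pass (limma adjusted p = 1.00 in both). The other Vamp1 probe set, M24104_at, read 401.7, 365.2 and 346.0 in control, 430.0, 325.1 and 570.1 at 1 day, and 331.1, 457.5 and 553.4 at 3 days. It also averaged higher in both dehydrated groups, but its groups overlapped.

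Vamp2, the main synaptobrevin of forebrain vesicles, was bright and level. M24105_at read 1033, 1112 and 1166 in control, 907.4, 931.1 and 1257 at 1 day, and 1045, 1277 and 756.9 at 3 days. The differences were -0.13 ± 0.26 at 3 days and -0.11 ± 0.26 at 1 day, and its further probe set rc_AI101103_s_at lay between 437.8 and 697.4 on the 9 arrays. Vamp3, or cellubrevin, the widely expressed form, lay between 130.8 and 246.5, with overlapping groups.

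The syntaxins are the target membrane SNAREs. Stx1a, the syntaxin of the nerve terminal, read 191.2, 179.0 and 254.6 by D10392_i_at in control, 174.3, 164.2 and 290.4 at 1 day, and 211.9, 237.6 and 157.9 at 3 days. Its differences were -0.04 ± 0.30 at 3 days and -0.02 ± 0.30 at 1 day. D12519_s_at read 111.8, 133.5 and 90.5 in control, 140.1, 129.4 and 39.1 at 1 day, and 127.0, 143.7 and 112.7 at 3 days, and its lowest value was that of 1-day c.

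The other syntaxins act elsewhere in the cell. Stx7, of late endosomes, read 112.1, 96.6 and 67.4 in control, 62.3, 37.2 and 81.9 at 1 day, and 65.2, 102.4 and 104.1 at 3 days. Its 1-day mean was the lowest, at -0.61 ± 0.35 from control and with 3 days standing 0.59 ± 0.35 above it, but the groups overlapped. At 1 day the difference was -0.32 without 1-day b, and -0.85 without 1-day c (limma unadjusted p = 0.045, adjusted p = 0.999). Stx5, of the endoplasmic reticulum to Golgi step, read 97.4, 89.7 and 106.7 by L20822_at in control, 114.3, 136.3 and 105.6 at 1 day, and 124.8, 129.3 and 103.1 at 3 days. That is 0.26 ± 0.24 at 1 day. U87971_g_at, also for Stx5, read 55.5, 56.2 and 32.8 in control, 34.0, 62.5 and 34.3 at 1 day, and 46.4, 51.7 and 26.9 at 3 days, so the probe sets of this gene differed in sign. Stx4, of the plasma membrane, was dim, at 11.0 to 60.7, and Stx3 lay under the filter.

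After fusion NSF and its adaptor alpha-SNAP, the product of Napa, separate the SNAREs. Napa by X89968_g_at read 581.7, 641.7 and 633.6 in control, 740.1, 758.2 and 628.9 at 1 day, and 677.6, 786.4 and 967.3 at 3 days. All 3-day arrays exceeded all control arrays, with 0.37 ± 0.22 between the groups (limma adjusted p = 1.00), or 0.24 without 3-day c. X89968_at of the same accession read 233.4, 264.4 and 213.7 in control, 156.0, 213.2 and 243.5 at 1 day, and 273.7, 262.1 and 264.0 at 3 days. There the 3-day arrays exceeded all 1-day arrays (0.40 ± 0.24 between the times), and the 2 probe sets had opposite signs at 1 day.

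Nsf itself was measured by a pair of probe sets. AF091834_at read 189.2, 266.4 and 132.0 in control, 241.3, 264.1 and 278.2 at 1 day, and 270.0, 256.9 and 238.0 at 3 days. The dehydrated arrays were tightly grouped and control was wide, which gave 0.43 ± 0.27 at 3 days and 0.46 ± 0.27 at 1 day. Without control c these were 0.18 and 0.21. AF089839_at read 100.2, 186.2 and 55.5 in control, 91.3, 142.3 and 101.6 at 1 day, and 139.8, 239.9 and 84.9 at 3 days, highest on letter b in every group. Over the 19 tested probe sets of SNAREs and their recycling, 11 were higher and 8 lower at 3 days (median 0.17), and 6 higher and 13 lower at 1 day (median -0.11).

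**Figure D4:**
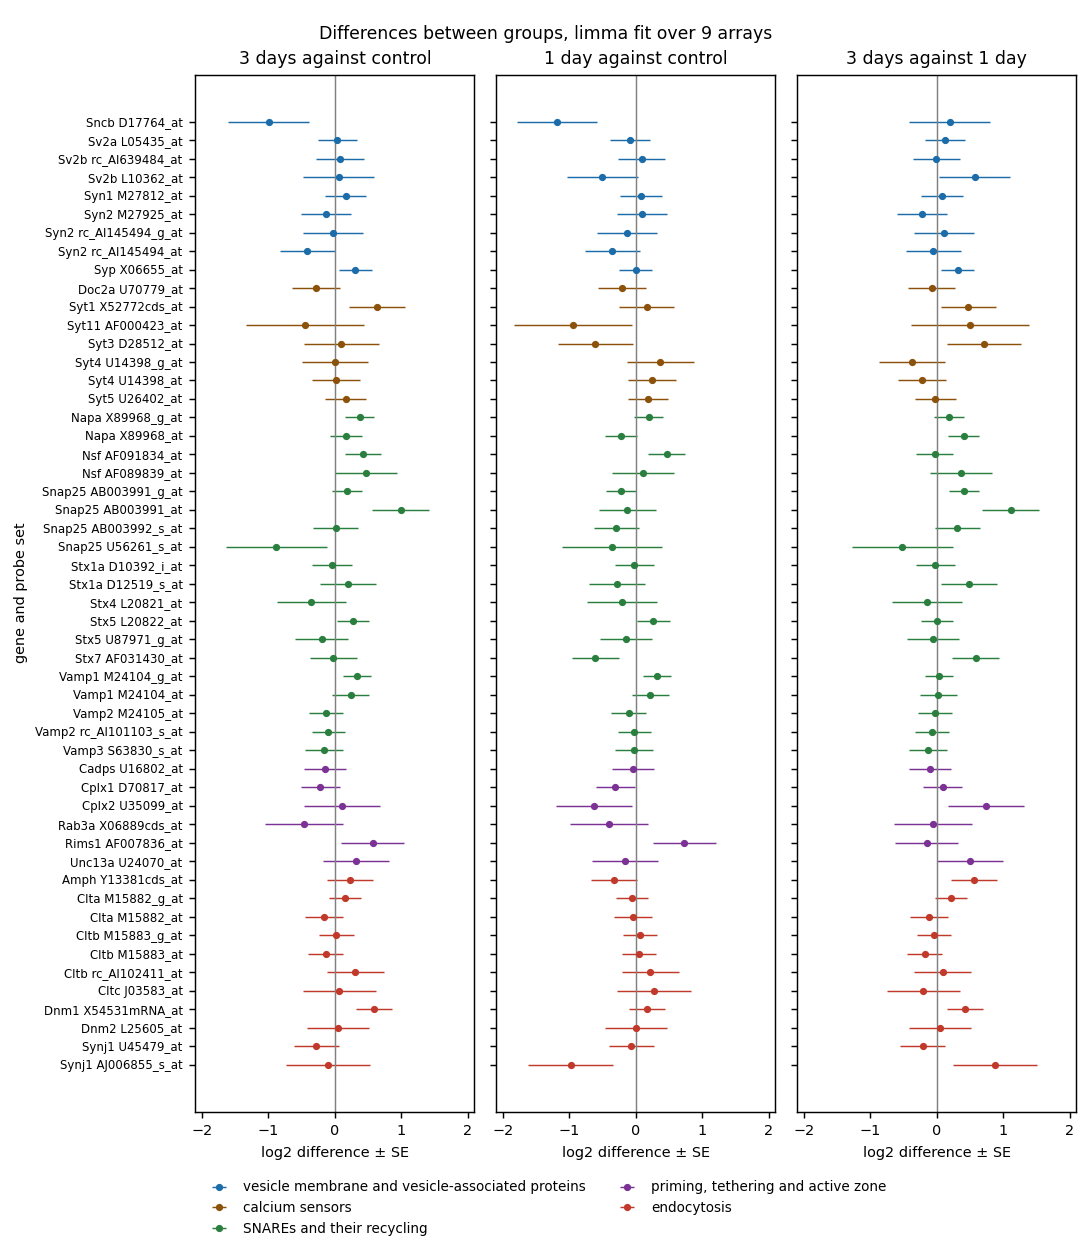
Log2 difference ± SE (limma, 9 arrays) of the 52 tested member probe sets at 3 days against control, at 1 day against control and at 3 days against 1 day, coloured by role. The points lie on both sides of 0 in every role, and none passed the test after adjustment over 5247 probe sets.

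Proteins of the vesicle itself include the synapsins, which tie vesicles to each other and to actin. Syn1 read 655.1, 369.1 and 397.5 in control, 584.7, 327.7 and 592.2 at 1 day, and 611.0, 436.9 and 503.7 at 3 days. Its differences, 0.16 ± 0.32 at 3 days and 0.08 ± 0.32 at 1 day, lay within their SE. Syn2 read 105.6, 182.6 and 207.7 by M27925_at in control, 108.9, 169.0 and 263.2 at 1 day, and 128.4, 193.6 and 119.8 at 3 days. In rc_AI145494_g_at it read 142.2, 134.7 and 56.5, then 122.3, 59.4 and 112.4 at 1 day, and 154.4, 107.2 and 61.9 at 3 days. The third Syn2 probe set, rc_AI145494_at, read 88.3, 129.9 and 48.7 in control, 77.0, 60.5 and 55.4 at 1 day, and 77.3, 81.4 and 35.8 at 3 days, with -0.41 ± 0.41 at 3 days. That value was -0.057 without 3-day c and -0.77 without control c. Array c had the highest control signal in the first of these and the lowest in the others.

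Syp, or synaptophysin, an abundant membrane protein of small vesicles, read 880.1, 714.5 and 609.3 in control, 818.7, 830.4 and 558.4 at 1 day, and 878.7, 910.8 and 908.3 at 3 days. The 3-day arrays were close together and above all 1-day arrays. The difference from control was 0.31 ± 0.25 at 3 days and -0.00 ± 0.25 at 1 day. Sv2a, a vesicle glycoprotein, averaged 449.9 ± 126.7 on the control arrays, 422.1 ± 113.4 after 1 day and 450.9 ± 61.3 after 3 days (SD, n = 3 arrays each), with overlap throughout. Its relative Sv2b read 132.6, 120.1 and 198.1 by rc_AI639484_at in control, 102.0, 141.0 and 262.3 at 1 day, and 133.0, 146.9 and 190.3 at 3 days. By L10362_at it read 31.8, 47.4 and 22.6 in control, 10.3, 17.8 and 50.8 at 1 day, and 35.7, 44.4 and 24.9 at 3 days, so that the probe sets differed in sign at 1 day.

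Sncb encodes beta-synuclein, a presynaptic protein related to alpha-synuclein. It read 221.9, 254.0 and 199.9 in control, 153.6, 183.6 and 29.9 at 1 day, and 210.1, 65.6 and 95.9 at 3 days. Every dehydrated array was below the control array of its letter, and the 1-day group lay wholly below control. The differences were -0.999 ± 0.60 at 3 days (limma unadjusted p = 0.13, adjusted p = 1.00) and -1.19 ± 0.60 at 1 day (unadjusted p = 0.075, adjusted p = 1.00). The 1-day value rests on array c: without it the difference was -0.41. At 3 days it was -0.64 without array b, -0.90 without array c and -1.45 without array a.

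Calcium sensors start fusion. Syt1, the sensor of fast release at forebrain synapses, read 70.1, 75.2 and 30.1 in control, 59.8, 75.2 and 51.4 at 1 day, and 106.1, 117.6 and 51.7 at 3 days. Within every letter the 3-day array was above control, while array c was lowest in every group, and the difference was 0.63 ± 0.42 at 3 days and 0.16 ± 0.42 at 1 day. At 3 days it was 0.24 without control c, 0.42 without 3-day b and 0.98 without 3-day c. Syt4, a synaptotagmin known from peptide secretion in the posterior pituitary, read 168.9, 251.1 and 131.5 by U14398_g_at in control, 178.0, 391.2 and 174.6 at 1 day, and 188.3, 350.0 and 83.5 at 3 days. Letter b was highest in each group, and the difference between the times was -0.37 ± 0.50. Its other probe set, U14398_at, read 200.3, 128.5 and 126.1 in control, 155.4, 249.0 and 142.1 at 1 day, and 154.9, 228.6 and 96.0 at 3 days.

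Other sensors were as variable. Syt11, which lacks the usual calcium binding, ranged from 10.0 on 1-day c to 239.6 on control a and was highest on letter a in all groups. Syt3 ranged from 37.8 on 1-day c to 268.4 on control a. Syt5 lay between 195.9 and 447.6, with its highest value on 3-day c. Doc2a, a high-affinity sensor of slow release, was dim at 28.2 to 59.9. Of the 7 tested probe sets in this role 4 were higher and 3 lower at 3 days, and 4 higher and 3 lower at 1 day.

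Priming and tethering proteins decide which vesicles can fuse. Rab3a, the GTPase of vesicle docking, read 1207, 848.5 and 662.2 in control, 1258, 820.8 and 279.9 at 1 day, and 1329, 315.4 and 611.8 at 3 days. Array a was highest in every group, and the differences of -0.46 ± 0.59 at 3 days and -0.41 ± 0.59 at 1 day came with 1 low array in each dehydrated group. Unc13a, or Munc13-1, the main priming factor, read 121.0, 38.6 and 41.2 in control, 82.5, 37.4 and 43.4 at 1 day, and 112.5, 78.3 and 45.3 at 3 days. Again letter a was highest throughout (0.32 ± 0.50 at 3 days, -0.17 ± 0.50 at 1 day). Cadps, which encodes CAPS, a priming factor of dense-core granules, read 222.6, 486.1 and 333.6 in control, 277.0, 386.8 and 307.9 at 1 day, and 308.3, 373.8 and 231.2 at 3 days. Letter b was highest in each group and the groups overlapped (-0.14 ± 0.32 at 3 days, -0.04 ± 0.32 at 1 day).

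Complexins clamp and then help the fusion step. Cplx1 lay between 318.4 on 1-day c and 641.2 on 3-day a. Cplx2 read 116.9, 116.4 and 68.5 in control, 97.2, 115.7 and 19.5 at 1 day, and 167.8, 97.1 and 71.7 at 3 days, with array c lowest in every group and -0.63 ± 0.57 at 1 day. Without 1-day c that difference was 0.11. Rims1, an active zone scaffold, was dim and read 42.2, 14.2 and 14.0 in control, 35.9, 40.8 and 34.4 at 1 day, and 44.3, 37.1 and 21.0 at 3 days. Control a stood with the 1-day arrays and the other control arrays below them (0.73 ± 0.47 at 1 day). Of the 6 tested probe sets in this role 3 were higher and 3 lower at 3 days (median -0.02), and 1 was higher and 5 lower at 1 day (median -0.24).

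Membrane is recovered by endocytosis. Dnm1, the dynamin that pinches off vesicles at nerve endings, had the highest mean signal of all members. It read 1035, 1703 and 928.8 in control, 1275, 1557 and 1176 at 1 day, and 1658, 1681 and 2002 at 3 days. All 3-day arrays lay above all 1-day arrays, while control b was as high as the 3-day arrays. The difference from control was 0.59 ± 0.27 at 3 days (limma unadjusted p = 0.054, adjusted p = 1.00) and 0.17 ± 0.27 at 1 day. Leaving out control c gave 0.42 at 3 days, and leaving out control b gave 0.85. Dnm2, the form found in most tissues, lay between 16.4 and 64.5.

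Clathrin coats budding vesicles. Cltc, its heavy chain, read 339.7, 716.4 and 203.2 in control, 322.6, 814.9 and 334.4 at 1 day, and 354.9, 729.9 and 220.9 at 3 days. Letter b was about as high in every group and far above the other letters, and the differences were 0.07 ± 0.55 at 3 days and 0.27 ± 0.55 at 1 day. Clta, a light chain, read 874.1, 743.8 and 760.6 by M15882_g_at in control, 885.0, 618.2 and 807.2 at 1 day, and 772.1, 809.8 and 1092 at 3 days. By M15882_at it read 191.3, 237.0 and 325.1 in control, 219.2, 197.3 and 307.3 at 1 day, and 182.8, 260.1 and 217.0 at 3 days. The groups overlapped in both, and the signs at 3 days were opposite.

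Cltb, the other light chain, read 393.2, 433.9 and 562.0 by M15883_g_at in control, 517.4, 409.2 and 516.0 at 1 day, and 422.2, 392.2 and 607.7 at 3 days. M15883_at read 134.2, 107.4 and 109.5 in control, 139.4, 95.7 and 130.9 at 1 day, and 113.1, 117.2 and 88.7 at 3 days (-0.18 ± 0.26 between the times). The dim rc_AI102411_at read 21.5, 56.6 and 19.9 in control, 38.0, 35.8 and 30.6 at 1 day, and 44.9, 37.8 and 30.1 at 3 days. All 3 groups overlapped in each of them.

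Synj1 encodes synaptojanin, the phosphatase that helps to strip the clathrin coat. U45479_at read 365.1, 641.5 and 453.9 in control, 278.0, 569.4 and 582.7 at 1 day, and 329.4, 490.5 and 365.4 at 3 days. Every 3-day array was below the control array of its letter (-0.28 ± 0.34 from control and -0.21 ± 0.34 from 1 day). AJ006855_s_at read 273.2, 319.6 and 271.4 in control, 244.1, 313.8 and 36.5 at 1 day, and 219.4, 404.5 and 213.6 at 3 days. Its 1-day difference of -0.98 ± 0.64 rests on array c, and was -0.05 without it. Amph, or amphiphysin, which brings dynamin to the coat, lay between 47.8 on 1-day b and 157.2 on 3-day c, with 3 days above control in every letter. Of the 11 tested probe sets of endocytosis 7 were higher and 4 lower at 3 days (median 0.05), and 5 higher and 6 lower at 1 day (median -0.00).

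**Figure D5:**
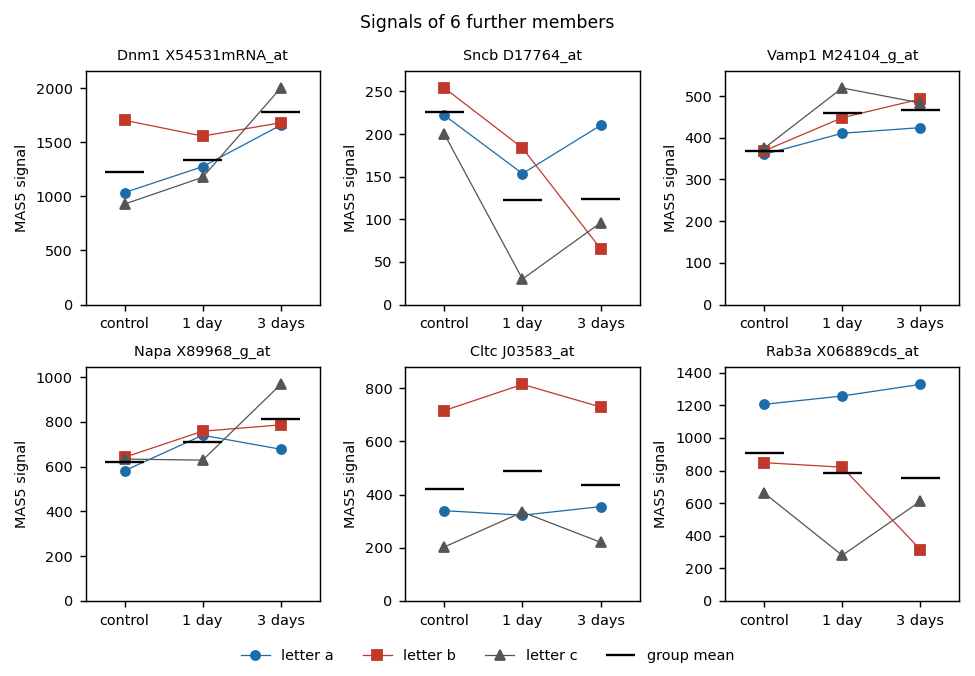
MAS5 signal (linear axis from 0, a scale for each panel) of 6 members in control, at 1 day and at 3 days; points are arrays, lines join arrays of 1 letter, and black bars are group means. Vamp1 M24104_g_at separates both dehydrated groups from control, Sncb reaches 29.9 on 1-day c, and Cltc is high on letter b in every group.

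Probe sets of 1 gene often differed in sign. Of the 13 genes with several tested probe sets, the log2 differences had opposite signs for 6 at 3 days, 4 at 1 day and 9 between the times. The share over all genes with several probe sets was not computed. Some of these differences lay close to 0 and within their SE, such as -0.0016 ± 0.50 and 0.023 ± 0.36 for Syt4 at 3 days. The counts are thus a description and no trait of these genes. With the brightest probe set of each of the 35 genes, 21 were higher and 14 lower at 3 days (median 0.07), and 14 higher and 21 lower at 1 day (median -0.02).

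The letters left a trace of their own. In 14 of the 52 probe sets 1 letter was highest in all 3 groups, or 26.9 percent, against 34.6 percent of all tested probe sets. The 1-day array c was the lowest of the 9 arrays for 11 of the 52 (21.2 percent, against 15.2 percent of all) and control c for 9 (17.3 against 13.0 percent). Within the letters the median member difference at 1 day was -0.12 for a, -0.08 for b and 0.14 for c. At 3 days it was 0.05, 0.09 and 0.11.

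Further genes of the release pathway, from a list of 140 symbols outside the 42, gave 64 tested genes, with the brightest probe set standing for each. limma called 0 of them in every comparison. At 3 days 39 were higher and 25 lower (median 0.08), at 1 day 35 higher and 29 lower (median 0.04), and between the times 32 and 32 (median 0.01). At 3 days Rabac1, which encodes a Rab acceptor of the Golgi, was 0.35 ± 0.20 higher and Stxbp5, or tomosyn, an inhibitor of SNARE assembly, 0.65 ± 0.36 higher, both without overlap. Stxbp5 was dim, at 26.8 to 28.3 in control and 31.2 on 3-day c. Over all probe sets 4.73 percent were higher without overlap at 3 days and 3.01 percent lower. Cadps2, the second CAPS gene, was -0.996 ± 0.57 from control at 3 days, also without overlap, and -0.73 ± 0.57 at 1 day. At 1 day Lin7b, a presynaptic scaffold gene, was -0.73 ± 0.36 from control without overlap, where 1.58 percent of all probe sets were lower without overlap. Between the times Rab11a stood at -0.78 ± 0.35 with overlap (limma unadjusted p = 0.046, adjusted p = 0.998). Snap91 stood at -0.65 ± 0.32 without overlap, where 2.67 percent of all probe sets were lower without overlap. The smallest p between the times was that of Stx6, a syntaxin of the trans-Golgi network (1.63 ± 0.65, limma unadjusted p = 0.029, adjusted p = 0.998). Stx6 was dim: 8.7, 28.0 and 23.0 in control, 26.4, 13.6 and 2.3 at 1 day, and 39.3, 61.5 and 31.3 at 3 days. Its control and 1-day means, 19.9 and 14.1, lay under the filter value of 23.1. It was therefore tested only through the 3-day group in which it was high, and this p is no support for a difference. With 1 array left out the difference ranged from 1.01 to 2.14.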

How the data were processed

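Total RNA of 9 supraoptic nucleus samples was measured on 1-colour rat expression arrays, 1 array per sample. The deposited values are linear MAS5 signal intensities, 1 per probe set, which the authors computed per the submitters' processing notes (version not given in the sources used here). Each array has a 2 percent trimmed mean of 100.1, so the arrays were already scaled and were not normalized again. The number of arrays limits the precision.

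Of 8799 probe sets, 59 were controls, 7006 others had 1 gene symbol, 308 several and 1426 none in the platform annotation. Signals were taken as log2(signal + 4), filtered at the 40th percentile of mean signal, and fitted over the 3 groups with limma 3.58.1 (R 4.3.3, moderated by an intensity trend, 6 residual degrees of freedom). P-values were adjusted by Benjamini-Hochberg over 5247 probe sets at a threshold of 0.05. The fit was run on simulated arrays with independent noise and changes larger than any group difference of a member. That run does not cover differences of the size seen here, nor deviations shared by a letter.

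The titles do not say what the letters mark, so a pairing of the arrays is inferred from the values. Deviations from the group means correlated at 0.17 to 0.47 in the 9 same-letter pairs and at -0.33 to 0.12 in the others. The fit with the letter as a block is an alternative, and the SEs printed are from the fit without it. The median SE at 3 days was 0.3 with the block and 0.4 without it.

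Members and lists were chosen with earlier results of these data known. Signals on every array are given for 12 core genes, for up to 4 member probe sets per direction and comparison with the smallest p, and for genes whose probe sets differ in sign. Of the further pathway genes, those named come from the 3 with the smallest p per direction and comparison. Promoter sequences are RefSeq's (GRCr8). Alternatives changed the added constant, the filter, the scaling, the trend, the samples fitted, the block and the arrays left out.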

Additional observations from a re-analysis of the deposited data

How the results depend on the processing

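Under 20 alternatives limma called 0 members and 0 probe sets in every comparison, and the lowest adjusted p of a member was 0.77. The replicate block, with the letter as the pair, also called 0 members and changed no call, with Snap25 AB003991_at at 3 days having an adjusted p of 0.873. Median centring moved the member median at 3 days to 0.0053, and the median over all probe sets from 0.016 to -0.022. Quantile normalization turned Stx1a at 3 days to 0.021 and Syp at 1 day to 0.031. Leaving out control c and 1-day c together, chosen after seeing the data, gave 0.11 for Stx1a and -0.35 for Cltc at 3 days, and -0.17 for Syn1, 0.056 for Syp, 0.0059 for Rab3a and -0.11 for Syt1 at 1 day. The cause was not tested. Fits that left out 1 array pooled the spread over the rest. The member median then ranged from 0.021 to 0.087 at 3 days, from -0.11 to -0.0043 at 1 day and from -0.014 to 0.14 between the times. At 3 days Stx1a ranged from -0.17 to 0.12, Cltc from -0.39 to 0.55, Vamp2 from -0.31 to 0.068, Cadps from -0.43 to 0.13 and Rab3a from -0.99 to 0.038. At 1 day Stx1a ranged from -0.28 to 0.13, Cltc from -0.16 to 0.75, Syn1 from -0.075 to 0.36, Cadps from -0.32 to 0.23, Unc13a from -0.49 to 0.34, Cplx2 from -1.06 to 0.11, Syp from -0.13 to 0.18, Rab3a from -0.87 to 0.21, Syt1 from -0.23 to 0.38 and Dnm1 from -0.0014 to 0.43. Between the times Syt4 U14398_g_at ranged from -0.85 to 0.16 and Snap25 U56261_s_at from -1.24 to 0.32. Without a change of sign, 1 array left out moved Snap25 U56261_s_at at 3 days between -1.56 and -0.047, Synj1 U45479_at between -0.47 and -0.063, Unc13a between 0.034 and 0.83, Nsf AF091834_at between 0.18 and 0.67 and Cadps2 between -1.34 and -0.43, and Rims1 at 1 day between 0.50 and 1.18. With 3 arrays a group and a median SE of 0.4, differences of the size seen in most members were not detectable.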
